A study of Homo sapiens with 12 samples.

Results

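The comparison described here is that of SHEP cells given both doxycycline (Dox) and 4-hydroxytamoxifen (OHT) with SHEP cells given Dox alone. SHEP is a human neuroblastoma line, and every library came from cells with a MYCN-ER fusion, which OHT activates, and with a short hairpin RNA against TCEAL1, which Dox induces. The members are 6 of the 12 poly(A) RNA libraries, namely 3 labelled OHT_Dox (200 nM OHT and 1 µg/ml Dox) and 3 labelled Dox (1 µg/ml Dox, no OHT), together with the genes that reached 0.5 CPM (reads per 1000000 reads counted in genes) in at least 3 of these 6. That left 18119 of the 28576 genes in the deposited table. The other 6 libraries, 3 with neither compound (Ctrl) and 3 with 200 nM OHT alone (OHT), served only to show where the response with the hairpin induced differed. Both groups compared carry Dox, so effects of Dox are shared by them, while an effect of OHT on cells without the fusion has no control in the design. Between libraries with and without Dox, the induced hairpin and Dox itself cannot be told apart, as no library has Dox without this hairpin. Treatment times and the clonal origin of the cells are not given in the sources used here, and nothing in the labels tells whether a replicate is a culture of its own, so p-values measure only the spread between these libraries.

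MYCN is a transcription factor of the MYC family that binds DNA as a dimer with MAX, most often at the E-box CACGTG, and its gene is amplified in many aggressive neuroblastomas. In MYCN-ER the protein is fused to the hormone-binding domain of the oestrogen receptor, which keeps it inactive until OHT is added. TCEAL1 belongs to a family of small nuclear proteins that resemble part of the elongation factor TFIIS (TCEA1), which helps arrested RNA polymerase II resume transcription, and the series names it with 2 deubiquitinases, USP11 and USP7.

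Depth lay between 44466458 reads (OHT_Dox replicate 3) and 57694970 reads per library over all 12. Mesenchymal defining markers were abundant in all 6 libraries, with VIM at 2223 to 2573 CPM, FN1 at 429 to 546 CPM and PRRX1 at 70.2 to 98.9 CPM. Of the adrenergic ones, HAND2 lay at 47.6 to 64.1 CPM and DBH at 0.0903 to 0.472 CPM. EPCAM (epithelial, 0.320 to 1.2 CPM), PTPRC (haematopoietic, 0.0450 to 0.398 CPM) and SOX10 (Schwann cell and melanocyte, 0 to 0.181 CPM) were low, though other members of their lists were not. The summed level of the 24 tested mesenchymal markers was 4197 to 4389 CPM in Dox and 4128 to 4324 CPM in OHT_Dox, and that of 8 tested adrenergic markers was 138 to 143 CPM and 159 to 166 CPM. The 4 tested epithelial markers summed to 920.1 to 942 CPM in Dox and 832 to 954 CPM in OHT_Dox, nearly all from KRT8 and KRT18. The 4 tested haematopoietic and endothelial markers summed to 89.8 to 93.4 CPM and 82.7 to 88.9 CPM, mostly from LCP1 and CD68. The 4 tested melanocyte and Schwann cell markers summed to 113 to 117 CPM and 83.0 to 84.4 CPM, nearly all from PMEL, which overlaps CDK2. The sums of the adrenergic, haematopoietic and melanocyte lists did not overlap between the groups, and their part in the results was not tested. In these bulk libraries, fewer cells of a type and less RNA per cell cannot be told apart.

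With OHT, 2283 genes were higher (12.6%) and 2961 lower (16.3%) at an adjusted p below 0.05 (limma on log2(CPM + 0.5), Benjamini-Hochberg over 18119 genes, two-sided). The split depended on the scaling of the libraries: after trimmed-mean (TMM) rescaling, 2794 were higher (15.4%) and 2317 lower (12.8%). The counts also depended on single libraries. Without Dox replicate 2 the falls came to 1898 and the rises to 1730, without Dox replicate 3 to 2360 and 2096, and without OHT_Dox replicate 1 to 2117 and 1757. Falls outnumbered rises whichever single library was left out. The median log2 fold change over all genes was -0.03 as deposited and 0.01 after TMM rescaling. Groups that did not overlap, all 3 libraries of one above all 3 of the other, were found for 3211 genes in the higher direction (17.7%) and 4421 in the lower (24.4%), 42.1% together. The genes called higher took 13.8% to 14.0% of all reads in Dox and 17.1% to 17.8% in OHT_Dox, and those called lower 18.5% to 18.8% and 14.6% to 15.8%.

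As deposited, large changes were mostly rises and small ones mostly falls. In the smallest size band this did not hold for the kept calls defined below (718 rises and 668 falls). Over 2-fold there were 94 rises and 13 falls, and from 1.5-fold to 2-fold 450 rises and 250 falls. Between a log2 change of 0.32 and 1.5-fold there were 870 rises and 1272 falls, and under 0.32 on the log2 scale 869 rises and 1426 falls. A call is termed kept below when the gene was called the same way as deposited, after removal of each library's trend with GC content, and after TMM rescaling. By that rule 2093 rises (11.6% of genes) and 2057 falls (11.4%) were kept. Of the falls under 0.32 (log2), 668 of 1426 (46.8%) were kept, against 718 of 869 rises of that size (82.6%). This contrast comes partly from the rule, because TMM rescaling moved changes upward and removed falls only. All 869 of those rises were called after it, against 869 of the 1426 falls. With the GC trend removed, 903 of those falls (63.3%) and 718 of those rises (82.6%) were called. In the next band, up to 1.5-fold, 1127 of 1272 falls (88.6%) and 834 of 870 rises were kept, and above 1.5-fold all but 1 fall and 3 rises. Single falls under 0.32 are therefore not described by name, apart from USP11, which was chosen for the study's subject.

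**Figure D1:**
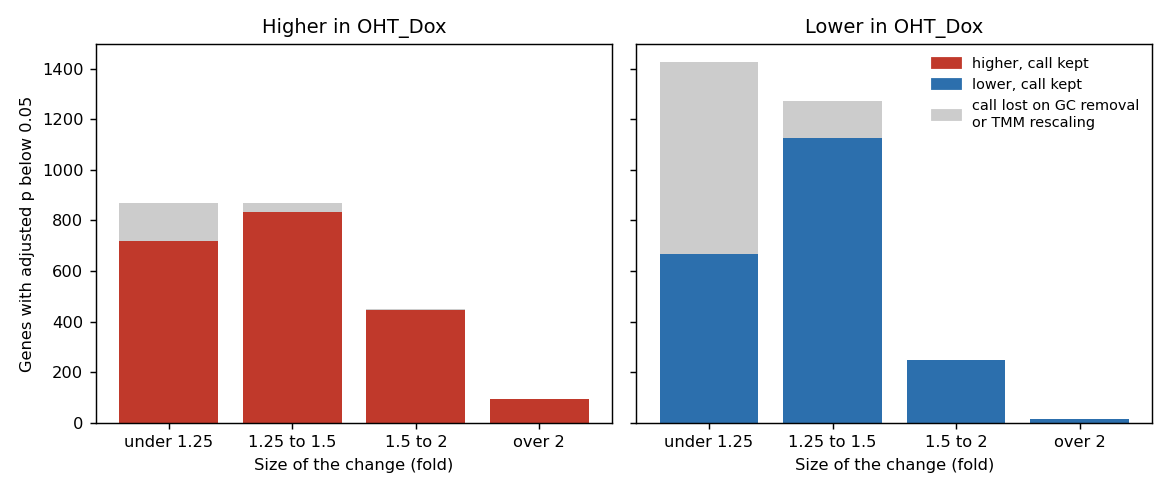
Number of genes (vertical axis) called higher (left) or lower (right) in OHT_Dox, by size of the change in fold (horizontal axis); the grey part of a bar is calls lost on removal of the GC trend or on TMM rescaling. The grey part is largest for falls of the smallest size band (under 0.32 on the log2 scale), where 668 of 1426 were kept.

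The change followed the GC content of the transcript. In the decile of genes with the lowest GC content (under 38.5%), the median log2 fold change was -0.16, with 33.3% of genes called lower and 5.30% higher. In the decile with the highest GC content (above 61.2%), the median was 0.09, with 4.64% lower and 23.6% higher. After the GC trend of each library was removed, these shares became 19.98% lower and 16.2% higher in the lowest decile and 15.9% and 18.2% in the highest. Over all genes, 2785 were then higher (15.4%) and 3002 lower (16.6%), 31.9% together. The effect of OHT without Dox, in other libraries, had medians of -0.01 in both of these deciles. Across genes, which are not independent replicates, Spearman's correlation of effect with GC content was 0.30 with Dox and -0.02 without. The 6 libraries deviated from their common mean with GC content to different degrees, with Spearman's correlations across genes of -0.34, -0.29 and -0.06 in Dox replicates 1 to 3 and 0.19, -0.11 and 0.51 in OHT_Dox replicates 1 to 3. OHT_Dox replicate 3, with the strongest deviation, was also the shallowest library. When it was left out and the GC trend removed as well, 2378 genes were higher and 2506 lower. The part of the GC trend in single small falls was not tested beyond these refits.

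**Figure D2:**
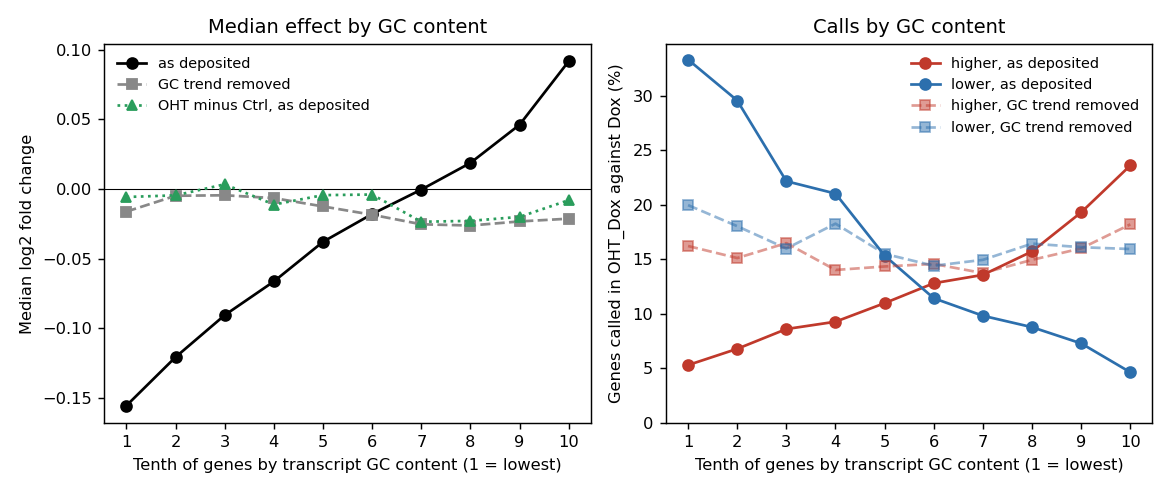
Median log2 fold change (left) and percentage of genes called in OHT_Dox against Dox (right) for deciles of genes by transcript GC content (horizontal axis, 1 is the lowest), as deposited and after removal of each library's GC trend; triangles show OHT minus Ctrl. As deposited, the share called lower runs from 33.3% in the lowest decile to 4.64% in the highest, and the medians of OHT minus Ctrl are -0.01 at both ends.

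TCEAL1 (ENSG00000172465), the hairpin's target, stood at 2.62, 2.54 and 2.74 CPM in Dox, against 2.58, 2.50 and 1.73 CPM in OHT_Dox. The libraries without Dox had 9.71, 9.11 and 10.7 CPM in Ctrl and 8.23, 9.75 and 8.99 CPM in OHT, so all 6 libraries with Dox lay below all 6 without. OHT_Dox replicate 3 was the lowest library, and the other OHT_Dox values were within the range of Dox or just below it. The change with OHT was -0.19 ± 0.15 on the log2(CPM + 0.5) scale and was not called (adjusted p = 0.394). It was -0.04 without OHT_Dox replicate 3 and -0.11 with the GC trend removed. TCEAL1 shares exon positions with TCEAL3, and since the strand setting of the counting is not given in the sources used here, reads of overlapping genes cannot be told apart.

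MYCN (ENSG00000134323), whose reads may stem from the fusion as well as the endogenous gene and which overlaps MYCNOS, stood at 537, 513 and 564 CPM in Dox, against 429, 376 and 470.1 CPM in OHT_Dox. The groups did not overlap, and MYCN fell by -0.34 ± 0.07 (adjusted p = 0.00152). Without Dox its values were 572, 436 and 479 CPM in Ctrl and 644, 492 and 471 CPM in OHT, and these groups overlapped. The difference between the 2 OHT effects was -0.45 ± 0.15 and was not called (interaction, adjusted p = 0.218). MYC (ENSG00000136997), the paralogue that most tissues use, stood at 24.2, 21.2 and 20.5 CPM in Dox, against 6.87, 5.80 and 7.11 CPM in OHT_Dox. Every OHT_Dox library was far below every Dox library, and the fall of -1.66 ± 0.10 was the largest among named genes (adjusted p = 1.17e-07). USP11 (ENSG00000102226) stood at 115, 113 and 124 CPM in Dox, against 106, 101 and 110.4 CPM in OHT_Dox, with all OHT_Dox values below all Dox values. Its change of -0.16 ± 0.05 lay close to the threshold (adjusted p = 0.0448). With the GC trend removed it was -0.20 (adjusted p = 0.0012), and with the GC and length trends removed -0.21 (0.00087). The call was lost after TMM rescaling (adjusted p = 0.147), with edgeR (0.154) and DESeq2 (0.125), with no filter (0.0808), in the fit of 12 libraries (0.0564) and without any single library other than OHT_Dox replicate 3 (0.0646 to 0.185). USP7 (ENSG00000187555) stood at 162, 174 and 168 CPM in Dox, against 174, 172 and 162 CPM in OHT_Dox, and TCEA1 (ENSG00000187735) at 170.4, 172 and 162 CPM in Dox, against 160.2, 169.7 and 149.9 CPM in OHT_Dox. The groups overlapped for both, and neither change was called (USP7 0.01 ± 0.05, adjusted p = 0.922; TCEA1 -0.07 ± 0.05, adjusted p = 0.345).

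The 15 largest rises joined an adaptor of receptor tyrosine kinases, clock repressors, a scaffold pseudokinase and several solute carriers. SH2B2 (ENSG00000160999), an adaptor of receptor tyrosine kinase signalling, stood at 0.759, 0.761 and 1.32 CPM in Dox, against 10.6, 9.66 and 12.8 CPM in OHT_Dox. It was near the filter in Dox and rose by 3.01 ± 0.16 (adjusted p = 5.31e-08). TRIB1 (ENSG00000173334), a pseudokinase that brings substrates to the ubiquitin ligase COP1, stood at 3.05, 3.77 and 2.52 CPM in Dox, against 15.7, 18.7 and 17.8 CPM in OHT_Dox, a rise of 2.32 ± 0.13. GPR157 (ENSG00000180758), an orphan G protein-coupled receptor, stood at 10.8, 10.7 and 10.8 CPM in Dox, against 45.7, 46.8 and 50.1 CPM in OHT_Dox, a rise of 2.09 ± 0.07 with the Dox libraries almost equal. By the rule that chose the 15 largest rises, the lowest OHT_Dox library was above the highest Dox library in each. SLC19A3 (ENSG00000135917), a thiamine transporter, stood at 2.42, 2.54 and 2.26 CPM in Dox, against 11.3, 12.3 and 11.9 CPM in OHT_Dox, which gave 2.09 ± 0.11. PLD6 (ENSG00000179598), a phospholipase of the outer mitochondrial membrane, stood at 30.8, 34.4 and 33.1 CPM in Dox, against 122, 119.8 and 126 CPM in OHT_Dox, which gave 1.89 ± 0.06 (adjusted p = 3.06e-10); it overlaps MPRIP. SLC6A15 (ENSG00000072041), a transporter of neutral amino acids, stood at 14.1, 14.5 and 13.3 CPM in Dox, against 50.3, 52.8 and 51.2 CPM in OHT_Dox. Its rise of 1.84 ± 0.07 became 1.97 when the GC trend was removed.

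The remaining rises included further surface and signalling proteins. ZNF469, a large zinc finger protein, rose by 1.92 ± 0.10 (from 5.86 ± 0.109 to 23.6 ± 2.52 CPM, SD, n = 3 per group). MMP17, a membrane-bound metalloprotease, rose from 6.76 ± 0.514 to 25.5 ± 3.88 CPM, and LRFN1, a synaptic adhesion protein, from 4.01 ± 0.234 to 15.03 ± 1.77 CPM. SLC43A2, a transporter of branched-chain and aromatic amino acids, rose from 6.98 ± 0.359 to 23.5 ± 4.67 CPM, with OHT_Dox replicate 3 the highest library. IL17D, a cytokine of the IL-17 family, rose from 1.58 ± 0.273 to 5.81 ± 1.01 CPM. NRARP, a feedback inhibitor of Notch signalling, rose from 13.8 ± 1.37 to 41.8 ± 4.10 CPM. SIK1, a salt-inducible kinase that restrains CREB coactivators, rose from 16.3 ± 0.651 to 48.2 ± 3.71 CPM. The log2 fold changes of MMP17, LRFN1, SLC43A2, IL17D, NRARP and SIK1 were 1.83 ± 0.11, 1.78 ± 0.11, 1.66 ± 0.12, 1.59 ± 0.15, 1.56 ± 0.09 and 1.53 ± 0.07. The clock genes NR1D1 and BHLHE41, also among the 15, are described below. With the GC trend removed, MMP17 changed by 1.67 and NRARP by 1.41.

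**Figure D3:**
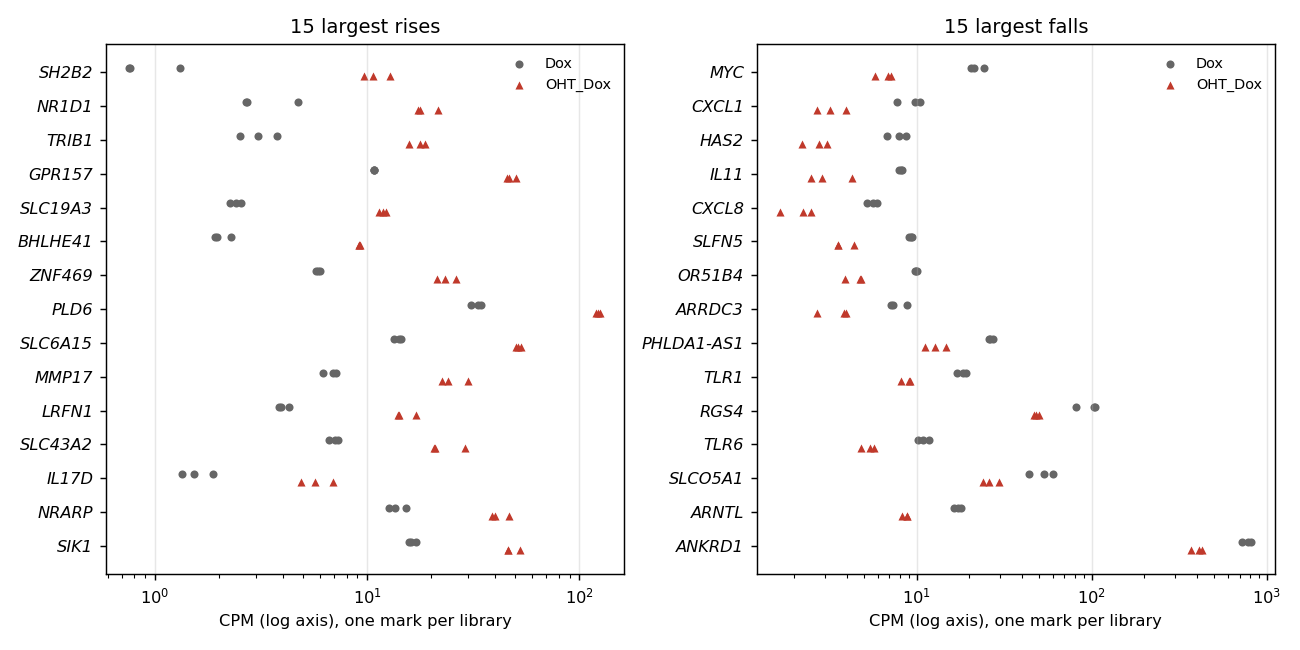
CPM (horizontal, log axis) of the 15 largest rises (left) and the 15 largest falls (right), with 1 mark per library, circles for Dox and triangles for OHT_Dox. By the rule that chose them the groups do not overlap for any gene; MYC goes from 20.5 to 24.2 CPM down to 5.80 to 7.11 CPM.

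The 15 largest falls, after MYC, held secreted factors, innate immune receptors and a matrix enzyme. CXCL1 (ENSG00000163739), a chemokine that attracts neutrophils, stood at 9.79, 10.4 and 7.78 CPM in Dox, against 3.94, 3.18 and 2.70 CPM in OHT_Dox, a fall of -1.38 ± 0.14. CXCL8 (ENSG00000169429), the chemokine interleukin 8, stood at 5.24, 5.61 and 5.92 CPM in Dox, against 2.24, 2.50 and 1.66 CPM in OHT_Dox and fell by -1.22 ± 0.14. IL11 (ENSG00000095752), a cytokine of the interleukin 6 family, stood at 7.98, 8.19 and 8.28 CPM in Dox, against 4.30, 2.50 and 2.88 CPM in OHT_Dox and fell by -1.24 ± 0.15, with more spread in OHT_Dox than in Dox. HAS2 (ENSG00000170961), which makes hyaluronan and overlaps HAS2-AS1, stood at 7.89, 8.73 and 6.78 CPM in Dox, against 2.22, 3.07 and 2.77 CPM in OHT_Dox and fell by -1.38 ± 0.14. RGS4 (ENSG00000117152), which shortens signals from G protein-coupled receptors, stood at 103, 105 and 81.5 CPM in Dox, against 50.2, 46.9 and 47.9 CPM in OHT_Dox. Dox replicate 3 was lower than the other Dox libraries but still well above OHT_Dox, and the fall was -0.98 ± 0.08. ANKRD1 (ENSG00000148677), a nuclear and sarcomeric protein induced by YAP, stood at 817, 783 and 726 CPM in Dox, against 427, 409 and 369 CPM in OHT_Dox and fell by -0.95 ± 0.06 (adjusted p = 1.13e-07).

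SLFN5, an interferon-induced Schlafen protein, fell from 9.26 ± 0.172 to 3.83 ± 0.487 CPM (-1.18 ± 0.11). ARRDC3, an alpha-arrestin that promotes receptor degradation, fell from 7.74 ± 0.891 to 3.50 ± 0.696 CPM (-1.05 ± 0.14). SLCO5A1, of the organic anion transporter family, fell from 52.7 ± 8.24 to 26.5 ± 2.87 CPM (-0.97 ± 0.10) and OR51B4, an olfactory receptor gene, from 9.91 ± 0.133 to 4.49 ± 0.502 CPM (-1.07 ± 0.11). TLR1 fell from 18.2 ± 1.13 to 8.80 ± 0.614 CPM (-1.01 ± 0.09) and TLR6 from 10.95 ± 0.757 to 5.31 ± 0.458 CPM (-0.98 ± 0.11). These neighbouring genes encode partners of TLR2 in sensing bacterial lipopeptides. They are close copies that overlap each other, so reads can be split between them. PHLDA1-AS1 fell from 26.6 ± 0.815 to 12.9 ± 1.76 CPM (-1.02 ± 0.09) and overlaps PHLDA1, whose fall is given below, so the 2 values may not be separate. ARNTL is given with the clock genes.

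Counts of calls in the lists below are to be read against all genes tested, of which 12.6% were higher and 16.3% lower (11.6% and 11.4% kept). Members named from a list were picked for small p, so groups that lie apart among them follow largely from that choice. Genes of ribosome assembly had, as deposited, the largest share of rises among the lists with at least 10 tested members. Of 82 tested nucleolar ribosome assembly genes, 48 (58.5%) were higher and 0 lower, against 12.6% and 16.3% of all genes, and all 48 calls were kept. At an unadjusted p below 0.05, 52 were higher and 2 lower, and edgeR and DESeq2 each called 52 higher and 0 lower. The list's median log2 fold change was 0.21, and it was 0.25 both with the GC trend removed and after TMM rescaling, against -0.03 for all genes as deposited. RRP1B (ENSG00000160208), a nucleolar protein that brings the phosphatase PP1 to the nucleolus, stood at 140.2, 138 and 136 CPM in Dox, against 251, 259 and 245 CPM in OHT_Dox, a rise of 0.86 ± 0.04 (adjusted p = 3.73e-08). DDX10, a DEAD-box helicase of the small-subunit pathway, stood at 64.1, 62.5 and 59.9 CPM in Dox, against 109, 112 and 100.3 CPM in OHT_Dox, a rise of 0.78 ± 0.06. WDR74, a chaperone of large-subunit assembly, stood at 56.0, 56.6 and 57.8 CPM in Dox, against 93.0, 88.3 and 100.3 CPM in OHT_Dox, a rise of 0.72 ± 0.06. NOLC1, a chaperone of small nucleolar RNPs, stood at 320.2, 323 and 320.2 CPM in Dox, against 442, 446 and 426 CPM in OHT_Dox, a rise of 0.45 ± 0.04. In all 4 the libraries within a group were close together and the groups lay apart.

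The promoters of these genes often held the E-box. In RefSeq promoter windows of 300 bases (GRCh38.p14, 250 before the start and 50 after it), CACGTG, which reads the same on both strands, occurred in 34 of 81 windows of the nucleolar list (42.0%). It occurred in 24 of 51 windows of raised members (47.1%), in 10 of 30 of members not called (33.3%), and in 7.26% of all 35116 RefSeq windows. For the genes tested here, 9.01% of 16700 windows held it. The share was 12.8% for kept rises of at least 1.5-fold, 14.0% for smaller kept rises and 8.65% for genes not called. It was 6.79% for kept falls under 1.5-fold and 6.50% for larger kept falls. Genes called but not kept are in none of these classes. The median GC content of the windows was 68.0%, 67.3%, 64.0%, 62.7% and 59.3% in the same order. A match describes the letters only and is not a measured binding site. The windows of RRP9 and IMP4 are printed because, among raised nucleolar genes whose windows hold CACGTG, these had the smallest p; capitals mark CACGTG, and each is 5′ to 3′ on the gene's own strand.
RRP9: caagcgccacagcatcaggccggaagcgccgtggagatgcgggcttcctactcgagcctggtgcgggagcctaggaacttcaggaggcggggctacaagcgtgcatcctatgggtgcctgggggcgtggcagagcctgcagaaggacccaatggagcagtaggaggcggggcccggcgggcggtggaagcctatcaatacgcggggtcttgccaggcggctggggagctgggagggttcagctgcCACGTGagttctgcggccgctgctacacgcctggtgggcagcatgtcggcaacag
IMP4: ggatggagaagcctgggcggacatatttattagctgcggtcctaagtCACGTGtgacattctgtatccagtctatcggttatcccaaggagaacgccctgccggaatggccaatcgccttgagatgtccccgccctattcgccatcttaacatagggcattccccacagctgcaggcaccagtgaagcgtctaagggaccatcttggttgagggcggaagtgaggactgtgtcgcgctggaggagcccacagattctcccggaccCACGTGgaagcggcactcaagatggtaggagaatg
The RRP9 window is chr3:51941855-51942154 on the minus strand, and its CACGTG begins 5 bases before the annotated start. RRP9, a subunit of the U3 small nucleolar RNP, stood at 48.1, 47.9 and 50 CPM in Dox, against 77.2, 69.1 and 81.5 CPM in OHT_Dox, a rise of 0.63 ± 0.06. The IMP4 window is chr2:130342647-130342946 on the plus strand and has 2 matches, one beginning 203 bases before the start and one after it. IMP4, a further U3 protein that overlaps CCDC115, stood at 113, 112 and 111 CPM in Dox, against 156, 147 and 163 CPM in OHT_Dox, a rise of 0.47 ± 0.05.

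Of 15 RNA polymerase I subunits and factors, 6 were higher and 0 lower by limma, edgeR and DESeq2 alike and at an unadjusted p below 0.05, all 6 kept, with a median of 0.07. CD3EAP, a polymerase I subunit that overlaps ERCC1, rose from 63.7 ± 1.85 to 99.5 ± 4.12 CPM (0.64 ± 0.05). POLR1C, shared by polymerases I and III, rose by 0.39 ± 0.04, POLR1B, the second largest subunit, by 0.41 ± 0.05 and POLR1A, the largest, by 0.39 ± 0.05. Of 22 RNA polymerase III subunits and factors, 6 were higher (5 kept) and 3 lower (1 kept), with 9 and 1 after TMM rescaling. POLR3G, the subunit used in stem and tumour cells, rose from 53.9 ± 0.674 to 86.5 ± 4.72 CPM (0.68 ± 0.06). GTF3C4, of the factor TFIIIC, rose by 0.51 ± 0.05, while BRF2, of the TFIIIB used at U6 genes, fell by -0.35 ± 0.07.

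Few cytosolic ribosomal protein genes were called. Of 77 cytosolic ribosomal protein genes, 3 were higher and 0 lower, none of the 3 kept, with a median of 0.04. At an unadjusted p below 0.05, 8 were higher and 1 lower, edgeR called 6 and 0 and DESeq2 5 and 0, and with the GC trend removed 8 were higher and 1 lower. The 3 were RPL35 (0.15 ± 0.05), RPLP2 (0.13 ± 0.04) and RPL36 (0.16 ± 0.05). Of 73 mitochondrial ribosomal protein genes, 17 were higher (15 kept) and 1 lower (0 kept), with a median of 0.06, and the rises came to 11 without Dox replicate 2. MRPS17 rose from 39.8 ± 1.91 to 64.8 ± 1.45 CPM (0.70 ± 0.06), MRPL36 by 0.50 ± 0.06, MRPS23 by 0.36 ± 0.05 and MRPL4 by 0.52 ± 0.07. Of 29 genes of mitochondrial import and assembly, 10 were higher (all kept) and 1 lower (not kept), and 16 were higher after TMM rescaling. GRPEL1, the nucleotide exchange factor of the matrix HSP70, rose from 37.0 ± 0.463 to 56.4 ± 1.02 CPM (0.60 ± 0.06). TIMM44 (0.37 ± 0.05) and TIMM10B (0.39 ± 0.06), of the inner membrane machinery, and TOMM40 (0.36 ± 0.05), the outer membrane pore, rose too. Of 60 nuclear genes of oxidative phosphorylation, 4 were higher and 2 lower. After TMM rescaling and by edgeR and DESeq2 these counts were 8 and 1, and with the GC trend removed 7 and 1.

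Of 40 translation initiation factors, 6 were higher (15%, against 12.6% of all genes) and 3 lower (7.5%, against 16.3%), and 10 were higher with the GC trend removed. EIF3J (from 173 to 237 CPM, 0.45 ± 0.05) and EIF3B (0.31 ± 0.04), both of the eIF3 complex, rose, as did EIF4EBP1 (0.33 ± 0.06), a repressor of cap-dependent initiation. EIF4A2, a helicase gene whose introns host small nucleolar RNAs, fell by -0.42 ± 0.07. Of 22 cytosolic aminoacyl-tRNA synthetases 3 were higher and 2 lower, and their median was 0.00. The rises numbered 6 after TMM rescaling and by edgeR and DESeq2, and 5 with the GC trend removed. Of 62 splicing factors and hnRNPs, 12 were higher and 4 lower. HNRNPAB (0.26 ± 0.04), SRSF7 (0.26 ± 0.04) and HNRNPF (0.24 ± 0.04) rose, and TRA2A, a splicing activator, fell by -0.36 ± 0.06. The rises numbered 19 with the GC trend removed and 7 without Dox replicate 2. Of 51 genes of the nuclear pore and transport, 10 were higher (19.6%) and 7 lower (13.7%). XPO6, the exporter of actin, changed by 0.43 ± 0.04, KPNA3, an importin alpha, by 0.39 ± 0.06, and NUP58, of the central channel, by -0.37 ± 0.05. The rises of this list numbered 18 with the GC trend removed and 4 without OHT_Dox replicate 1. Its falls numbered 4 without Dox replicate 2 or by edgeR and 11 without OHT_Dox replicate 2. Of 23 noncoding host genes of small nucleolar RNAs, 4 were higher (17.4%) and 2 lower (8.70%), with SNHG15 at 0.79 ± 0.09 and SNHG12 at -0.61 ± 0.15.

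Several genes of nucleotide synthesis rose. Of 30 purine and pyrimidine synthesis genes, 13 (43.3%) were higher (12 kept) and 1 lower, with a median of 0.11. IMPDH1 (ENSG00000106348), which commits inosine monophosphate to guanine nucleotides, stood at 64.0, 62.4 and 64.6 CPM in Dox, against 115, 113 and 129 CPM in OHT_Dox, a rise of 0.90 ± 0.06. UCK2, a uridine and cytidine kinase, stood at 147, 147 and 156 CPM in Dox, against 229, 218 and 238 CPM in OHT_Dox, a rise of 0.60 ± 0.05. AK4, a mitochondrial adenylate kinase, rose from 7.43 ± 0.329 to 15.3 ± 0.988 CPM (0.99 ± 0.09), and PPAT, the first committed enzyme of purine synthesis, from 68.9 ± 3.11 to 100.3 ± 6.05 CPM (0.54 ± 0.06). For each of these genes the groups lay apart in all libraries. Of 24 genes of serine and one-carbon metabolism, 8 were higher (all kept) and 2 lower (1 kept). MAT2A, which makes S-adenosylmethionine, rose from 303 ± 36.7 to 506 ± 11.1 CPM (0.75 ± 0.07). MTFMT, which formylates the mitochondrial initiator tRNA, rose by 0.63 ± 0.07, MTHFD1L, of mitochondrial folate metabolism, by 0.39 ± 0.05 and MTRR, which reactivates methionine synthase, by 0.29 ± 0.05.

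Of 19 polyamine genes, 5 were higher and 4 lower, and 3 were higher when Dox replicate 3 or OHT_Dox replicate 2 was left out. ODC1, the rate-limiting enzyme of polyamine synthesis and a classic MYC target, stood at 294, 287 and 268 CPM in Dox, against 398, 432 and 411 CPM in OHT_Dox, a rise of 0.55 ± 0.05. SAT1, which starts polyamine breakdown, stood at 16.3, 17.4 and 20.4 CPM in Dox, against 10.1, 10.0 and 11.1 CPM in OHT_Dox, a fall of -0.76 ± 0.10. The groups did not overlap for either. DOHH, which modifies eIF5A, rose by 0.42 ± 0.08 and SRM, spermidine synthase, by 0.30 ± 0.06.

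Of 22 tested amino acid transporters, 12 (54.5%) were higher, all kept, and 4 lower (3 kept), with a median of 0.21. Besides SLC6A15 and SLC43A2, SLC7A5 (ENSG00000103257), the exchanger of large neutral amino acids, stood at 193, 194 and 187 CPM in Dox, against 395, 392.5 and 441 CPM in OHT_Dox, a rise of 1.09 ± 0.05 (adjusted p = 1.76e-08). OHT_Dox replicate 3 was the highest of its group, and the change was 1.01 with the GC trend removed. SLC7A2, a cationic amino acid transporter, stood at 53.8, 53.3 and 47.8 CPM in Dox, against 99.9, 108 and 89.8 CPM in OHT_Dox, a rise of 0.94 ± 0.07 that became 1.04 with the trend removed.

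Of 34 glycolysis and hypoxia response genes, 10 were higher (9 kept) and 2 lower (both kept), 6 were higher without Dox replicate 2, and 4 were lower with the GC trend removed. HK2, which phosphorylates glucose, stood at 53.7, 58.6 and 59.1 CPM in Dox, against 115, 113 and 115 CPM in OHT_Dox, a rise of 0.99 ± 0.05. SLC16A1, the lactate transporter MCT1, rose from 144 ± 6.29 to 249.7 ± 16.5 CPM (0.79 ± 0.05) and VEGFA, the angiogenic growth factor, from 31.0 ± 2.73 to 47.5 ± 2.34 CPM (0.61 ± 0.07). SLC2A3, a high-affinity glucose transporter, fell from 21.1 ± 2.28 to 12.4 ± 0.541 CPM (-0.74 ± 0.09). Of 24 sterol genes, 4 were higher (16.7%, against 12.6% of all genes, 3 kept) and 6 lower (25%, against 16.3%, all kept). STARD4, a cholesterol carrier that overlaps STARD4-AS1, stood at 68.1, 62.7 and 68.7 CPM in Dox, against 37.5, 38.9 and 34.9 CPM in OHT_Dox, a fall of -0.83 ± 0.06. SQLE, squalene epoxidase, rose from 55.4 ± 1.63 to 74.8 ± 2.21 CPM (0.43 ± 0.05), DHCR7, the last enzyme of the pathway, from 73.6 ± 9.17 to 119.7 ± 15.6 CPM (0.70 ± 0.09), while HMGCS1, an early step, fell from 41.1 ± 1.58 to 32.5 ± 0.339 CPM (-0.33 ± 0.06). The rises among the sterol genes numbered 2 without Dox replicate 2 or without OHT_Dox replicate 1. Of 19 fatty acid synthesis genes, 4 were higher (21.1%, against 12.6% of all genes) and 3 lower (15.8%, against 16.3%). FADS3 changed by 0.55 ± 0.07 and ACACB, which makes the malonyl-CoA that restrains fatty acid oxidation, by -0.52 ± 0.10.

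Clock genes changed in both directions. The clock runs on activation by ARNTL (BMAL1) with CLOCK and on repression by PER, CRY, NR1D and BHLHE4 proteins. Of 22 tested clock genes, 10 (45.5%) were higher (9 kept) and 4 lower (all kept). NR1D1 (ENSG00000126368), a nuclear receptor that represses ARNTL and overlaps THRA, stood at 2.73, 2.68 and 4.70 CPM in Dox, against 17.8, 17.3 and 21.5 CPM in OHT_Dox, a rise of 2.36 ± 0.17 (adjusted p = 3.53e-07). NR1D2, its paralogue, stood at 45.8, 45.9 and 40.2 CPM in Dox, against 73.6, 74.1 and 65.3 CPM in OHT_Dox, a rise of 0.68 ± 0.07. ARNTL (ENSG00000133794) stood at 17.9, 17.2 and 16.3 CPM in Dox, against 8.85, 8.81 and 8.23 CPM in OHT_Dox, a fall of -0.95 ± 0.09 (adjusted p = 3.72e-06). BHLHE41 (ENSG00000123095), a repressor that itself binds E-boxes and overlaps SSPN, stood at 1.91, 2.28 and 1.96 CPM in Dox, against 9.19, 9.23 and 9.20 CPM in OHT_Dox, a rise of 1.93 ± 0.12. Its RefSeq promoter window, chr12:26124988-26125287 on the minus strand of GRCh38.p14, is shown because it holds CACGTG (in capitals, beginning 48 bases before the start) and because BHLHE41 is one of the largest rises.
BHLHE41: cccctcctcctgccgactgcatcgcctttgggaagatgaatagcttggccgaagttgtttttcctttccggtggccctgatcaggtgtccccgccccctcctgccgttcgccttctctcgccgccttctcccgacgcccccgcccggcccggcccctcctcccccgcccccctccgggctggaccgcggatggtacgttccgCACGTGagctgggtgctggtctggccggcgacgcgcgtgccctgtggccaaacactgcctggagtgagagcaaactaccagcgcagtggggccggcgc
Of the 15 windows found for 10 of the 15 largest rises, 2 held CACGTG, those of BHLHE41 and IL17D, and of the 12 windows found for 8 of the 15 largest falls 0 did. Of 26 windows of clock genes, 7 held it (26.9%).

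In the network of MYC and MAX, proteins that share the dimer partner MAX or its relative MLX, 4 of 12 genes were higher and 3 lower, all kept. MXI1, an antagonist of MYC that pairs with MAX and represses E-box genes, stood at 9.86, 10.9 and 9.32 CPM in Dox, against 23.0, 23.9 and 23.1 CPM in OHT_Dox, a rise of 1.18 ± 0.09. MLXIP (MondoA), a sensor of glucose phosphate, rose from 107 ± 5.89 to 161 ± 5.33 CPM (0.59 ± 0.05), and MAX, the common partner, from 87.5 ± 2.51 to 104 ± 1.01 CPM (0.25 ± 0.05). Of 5 MondoA targets and arrestin genes, 3 were higher and 1 lower: ARRDC2 rose from 16.3 ± 1.29 to 31.7 ± 2.54 CPM (0.94 ± 0.08) and ARRDC1 by 0.42 ± 0.10, while ARRDC3 fell.

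Most mitosis and kinetochore genes fell. Of 68 tested mitosis and kinetochore genes, 47 (69.1%) were lower (39 kept) and 2 higher, with a median of -0.26, against -0.03 for all genes. With the GC trend removed, 46 were lower and the median was -0.20, and after TMM rescaling 41 were lower and the median was -0.22. DSN1 (ENSG00000149636), of the MIS12 kinetochore complex, stood at 43.7, 44.5 and 43.4 CPM in Dox, against 23.7, 24.1 and 25.0 CPM in OHT_Dox, a fall of -0.84 ± 0.06 (adjusted p = 5.47e-07). KIF14, a kinesin needed for cytokinesis, stood at 124, 128 and 118 CPM in Dox, against 77.8, 81.8 and 61.8 CPM in OHT_Dox, a fall of -0.75 ± 0.08, with OHT_Dox replicate 3 the lowest. NDC80, which links kinetochores to microtubules, stood at 63.3, 68.6 and 62.9 CPM in Dox, against 43.0, 46.5 and 39.6 CPM in OHT_Dox, a fall of -0.59 ± 0.07. KIF11, the motor that separates spindle poles, stood at 149.6, 154 and 146 CPM in Dox, against 109, 112 and 93.5 CPM in OHT_Dox, a fall of -0.52 ± 0.06. In each of the 4 genes all OHT_Dox libraries lay below all Dox libraries, and the GC-corrected falls were -0.76, -0.62, -0.48 and -0.39.

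Of 50 DNA replication genes, 22 (44.0%) were lower and 2 higher, of which 14 and 2 were kept, and 14 were lower without Dox replicate 2. CLSPN (claspin), a fork checkpoint adaptor, fell from 83.4 ± 1.27 to 56.0 ± 5.08 CPM (-0.58 ± 0.07), ORC1, of the origin recognition complex, from 49.3 ± 1.42 to 32.7 ± 2.64 CPM (-0.59 ± 0.07), DNA2, a nuclease and helicase, by -0.46 ± 0.06 and MCM10, an origin-firing factor, by -0.36 ± 0.05. Of 39 genes of homologous recombination and the Fanconi pathway, 19 (48.7%) were lower (15 kept) and 3 higher (all kept), and 12 were lower without Dox replicate 2 or without OHT_Dox replicate 1. BRIP1, a helicase that works with BRCA1, stood at 93.0, 95.8 and 88.9 CPM in Dox, against 54.6, 58.2 and 47.9 CPM in OHT_Dox, a fall of -0.79 ± 0.07. RAD54B, a DNA translocase of recombination, fell by -0.53 ± 0.06, while the checkpoint kinase gene CHEK2 rose by 0.48 ± 0.07. Of 12 histone genes, 3 were lower by limma, edgeR and DESeq2 alike, all kept, among them H2BC21 (-0.41 ± 0.10) and H2AC11 (-0.39 ± 0.12). Most replication-dependent histone transcripts lack a poly(A) tail.

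Regulators of the cell cycle were mixed. Of 28 G1 cyclins, kinases and inhibitors, 12 were lower (10 kept) and 4 higher (all kept), with 7 higher when the GC trend was removed. E2F8, an atypical E2F repressor, fell from 44.3 ± 1.51 to 26.0 ± 1.45 CPM (-0.76 ± 0.07), CDK2, which overlaps PMEL, by -0.47 ± 0.05 and CCNE2, a cyclin E, by -0.56 ± 0.07, while E2F5 rose by 0.44 ± 0.05. PMEL, a melanosome protein listed among melanocyte markers, changed by -0.47 ± 0.05 beside CDK2. Of 29 p53 targets, 11 (37.9%) were lower and 5 higher, all kept. TRIAP1, an inhibitor of apoptosis, rose from 41.7 ± 2.98 to 64.7 ± 2.49 CPM (0.63 ± 0.06). PLK2, a polo-like kinase, fell by -0.41 ± 0.05, GDF15, a stress cytokine, by -0.70 ± 0.09 and PPM1D, a phosphatase that switches off p53 signalling, by -0.43 ± 0.06. Of 18 BCL2 family genes, 4 were higher (22.2%, against 12.6% of all genes, 3 kept) and 4 lower (22.2%, against 16.3%). HRK, a pro-apoptotic BH3-only protein, rose from 6.51 ± 0.335 to 15.6 ± 2.16 CPM (1.19 ± 0.11). MCL1, an anti-apoptotic member, fell from 285 ± 7.32 to 205 ± 11 CPM (-0.47 ± 0.05), and PMAIP1 (NOXA, -0.54 ± 0.07) and BNIP3L (-0.33 ± 0.06) fell as well.

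Of 27 immediate early genes, 12 (44.4%) were lower, all kept, and 3 higher (2 kept), with a median of -0.22. KLF6, a zinc finger transcription factor, stood at 84.0, 82.4 and 82.9 CPM in Dox, against 51.2, 49.4 and 49.9 CPM in OHT_Dox, a fall of -0.72 ± 0.05 (adjusted p = 4.28e-07). FOSL2, an AP-1 subunit, fell by -0.39 ± 0.05, while ZFP36L2, an RNA-binding protein that destabilises transcripts, rose by 0.70 ± 0.06. Of 23 MAPK feedback and target genes, 11 (47.8%) were lower, all kept, and 5 higher (3 kept), with a median of -0.23, and 3 were higher when Dox replicate 2 or OHT_Dox replicate 1 was left out or the GC trend removed. PHLDA1, which overlaps PHLDA1-AS1, stood at 71.0, 74.9 and 67.1 CPM in Dox, against 37.1, 35.02 and 38.0 CPM in OHT_Dox, a fall of -0.94 ± 0.06. ERRFI1, an inhibitor of the EGF receptor family, stood at 166, 177 and 166 CPM in Dox, against 112, 115 and 107 CPM in OHT_Dox, a fall of -0.60 ± 0.05. Beside TRIB1, DUSP7, a phosphatase of ERK, rose from 36.0 ± 0.243 to 64.8 ± 4.27 CPM (0.84 ± 0.06). In these 4 genes the groups did not overlap.

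Of 27 chemokines, cytokines and NF-kB targets, 7 were lower (6 kept) and 4 higher (2 kept). IL18, an inflammasome cytokine, fell from 38.6 ± 1.83 to 27.9 ± 2.16 CPM (-0.46 ± 0.07) beside CXCL1, CXCL8 and IL11. Of 39 interferon-stimulated genes, 14 (35.9%) were lower (11 kept) and 1 higher. SAMD9, an antiviral restriction factor, stood at 31.2, 28.3 and 29.5 CPM in Dox, against 17.0, 17.8 and 14.1 CPM in OHT_Dox, a fall of -0.85 ± 0.09, and its neighbour and paralogue SAMD9L fell from 20.7 ± 1.09 to 11.7 ± 1.70 CPM (-0.80 ± 0.10). IFI16, a DNA sensor, fell by -0.42 ± 0.05. The SAMD9 groups lay well apart, with OHT_Dox replicate 3 the lowest library, and the GC-corrected fall was -0.71.

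Of 30 YAP and TEAD targets, 17 (56.7%) were lower (14 kept) and 3 higher (all kept), and 11 were lower without Dox replicate 2. CCN2 (CTGF), a matricellular protein, stood at 211, 212 and 199 CPM in Dox, against 144, 140.1 and 139.8 CPM in OHT_Dox, a fall of -0.55 ± 0.05. DLC1, a GTPase-activating protein, fell by -0.41 ± 0.06, while WWC1 (KIBRA), which activates the Hippo kinases, rose by 0.47 ± 0.06. Of 29 actin, contractile and SRF target genes, 5 were lower (17.2%, near the 16.3% of all genes, 3 kept) and 1 higher. After TMM rescaling 3 were lower, and the falls were under 0.32 on the log2 scale. Of 33 TGF-beta response genes, 9 were lower (5 kept) and 5 higher (all kept), and 4 were lower without Dox replicate 2. TGFB3, a ligand, rose from 11.1 ± 0.855 to 20.2 ± 0.744 CPM (0.84 ± 0.09), BAMBI, a decoy receptor, from 7.86 ± 1.35 to 14.7 ± 1.09 CPM (0.88 ± 0.12), and SKI, a repressor of SMADs, by 0.48 ± 0.07, while its relative SKIL fell by -0.47 ± 0.07.

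Of 44 collagens and matrix glycoproteins, 11 were lower (7 kept) and 1 higher, MMP17, where 16.3% of all genes were lower and 11.4% lower and kept. The falls numbered 7 without Dox replicate 2, after TMM rescaling or by edgeR. HAS2 had the largest fall of this list, and the falls next to it by p were under 0.32 on the log2 scale. Of 22 integrins and adhesion receptors, 6 were lower (3 kept) and 1 higher, and 1 was lower without Dox replicate 2. Of 51 axon guidance genes, 14 were lower (8 kept) and 6 higher, with 6 lower without Dox replicate 2, 7 without OHT_Dox replicate 1 and 9 after TMM rescaling. EPHA2, an ephrin receptor, stood at 225, 228 and 218 CPM in Dox, against 155, 145 and 161 CPM in OHT_Dox, a fall of -0.54 ± 0.05 with groups that did not overlap. The neuropilins, receptors for semaphorins and VEGF, moved apart, NRP2 rising by 0.52 ± 0.06 and NRP1 falling by -0.43 ± 0.05, and the ephrin receptor EPHB4 rose by 0.51 ± 0.07. Of 24 mesenchymal neuroblastoma markers, 9 were lower (8 kept) and 4 higher (all kept), and 5 were lower without Dox replicate 2. TWIST2, a repressor of epithelial genes, rose from 8.05 ± 0.868 to 19.2 ± 1.95 CPM (1.21 ± 0.11) and PRRX1 from 71.6 ± 1.24 to 93.4 ± 5.67 CPM (0.38 ± 0.06). These 2 rises are not typical of the list, where falls were more numerous and the lowest change was -0.39. The mean of FN1, a defining mesenchymal marker, was 539.5 CPM in Dox and 453.6 CPM in OHT_Dox. Of 8 tested adrenergic markers, GATA2 rose from 37.2 ± 3.08 to 54.8 ± 2.50 CPM (0.56 ± 0.07), HAND2 by 0.36 ± 0.06, and EYA1 fell by -0.52 ± 0.08. Of 4 tested epithelial and 4 tested haematopoietic and endothelial markers 0 were called by limma, edgeR or DESeq2 or had an unadjusted p below 0.05, and of 4 melanocyte and Schwann cell markers only PMEL was.

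Of 21 genes of the integrated stress response, 5 were higher (all kept) and 5 lower (4 kept), and 2 were lower without Dox replicate 2, without OHT_Dox replicate 1 or without OHT_Dox replicate 3, and 3 without Dox replicate 1. PPP1R15A (GADD34), which restores translation, fell from 27.2 ± 0.415 to 17.3 ± 0.874 CPM (-0.63 ± 0.07) and SESN2, a leucine sensor, by -0.48 ± 0.09. PYCR1, of proline synthesis, rose by 0.48 ± 0.07 and CTH, of cysteine synthesis, by 0.56 ± 0.11. Of 24 genes of the unfolded protein response, 7 were lower (3 kept) and 0 higher (1 at an unadjusted p below 0.05, 1 each by edgeR and DESeq2), led by HERPUD1 (-0.37 ± 0.07), of endoplasmic reticulum degradation. The falls numbered 3 when Dox replicate 2 or OHT_Dox replicate 1 was left out, and 4 when Dox replicate 1 or OHT_Dox replicate 3 was, with the GC trend removed or after TMM rescaling. Of 30 chaperonins and heat shock proteins, 3 were higher (10%, against 12.6% of all genes) and 3 lower (10%, against 16.3%). The rises numbered 5 with the GC trend removed and 6 by edgeR. DNAJB4 went from 35.6 ± 3.03 to 18.8 ± 1.19 CPM (-0.90 ± 0.08), and FKBP4, a co-chaperone of steroid receptors, rose by 0.35 ± 0.04. Of 40 proteasome genes, 2 were higher (5 with the GC trend removed) and 1 lower. The rises were those of PSMG1, an assembly chaperone, from 41.5 ± 0.991 to 67.6 ± 2.11 CPM (0.70 ± 0.06) and PSMB10, an immunoproteasome subunit, by 0.49 ± 0.09. Of 51 lysosome and autophagy genes, 11 were lower (21.6%, against 16.3% of all genes) and 3 higher (5.88%, against 12.6%). Of these, 7 falls and 2 rises were kept, and 7 genes were lower after TMM rescaling. The autophagy kinase gene ULK1 changed by -0.41 ± 0.08 and the lipid transfer gene ATG2A by -0.39 ± 0.08.

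Of 17 RNA polymerase II subunits and assembly factors, 3 were higher (17.6%) and 1 lower (5.88%), with POLR2H at 0.35 ± 0.05. Of 48 pausing, elongation and termination factors, 10 were lower (20.8%, against 16.3% of all genes, 7 kept) and 4 higher (8.33%, against 12.6%, all kept). ELL2, of the super elongation complex, fell from 135 ± 5.84 to 96.9 ± 9.56 CPM (-0.48 ± 0.07) and its scaffolds AFF4 and AFF1 by -0.48 ± 0.07 and -0.35 ± 0.07, while NELFA, of the pausing factor NELF, rose from 17.4 ± 0.565 to 24.6 ± 2.86 CPM (0.48 ± 0.09). Of 10 tested genes of the TCEAL, BEX and TFIIS families, 2 were lower, both kept, and 0 higher. At an unadjusted p below 0.05 these counts were 4 and 0, and edgeR and DESeq2 each gave 2 and 0. TCEAL9 stood at 40.9, 40.3 and 39.2 CPM in Dox, against 27.5, 25.7 and 22.3 CPM in OHT_Dox, a fall of -0.67 ± 0.08, and TCEAL8 at 37.1, 36.5 and 33.3 CPM in Dox, against 25.1, 25.7 and 23.6 CPM in OHT_Dox, a fall of -0.51 ± 0.07, with groups that lay apart. Of 45 ubiquitin-specific proteases, 16 (35.6%) were lower (12 kept) and 6 higher (all kept), with 10 higher when the GC trend was removed. USP36 (ENSG00000055483), a nucleolar deubiquitinase that stabilises MYC, stood at 54.6, 64.5 and 62.3 CPM in Dox, against 119.9, 118 and 124 CPM in OHT_Dox, a rise of 0.99 ± 0.06 (adjusted p = 1.49e-07). USP25 rose by 0.38 ± 0.07, USP53 fell from 39.5 ± 0.976 to 25.5 ± 1.86 CPM (-0.62 ± 0.07) and USP37 fell by -0.43 ± 0.08.

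**Figure D4:**
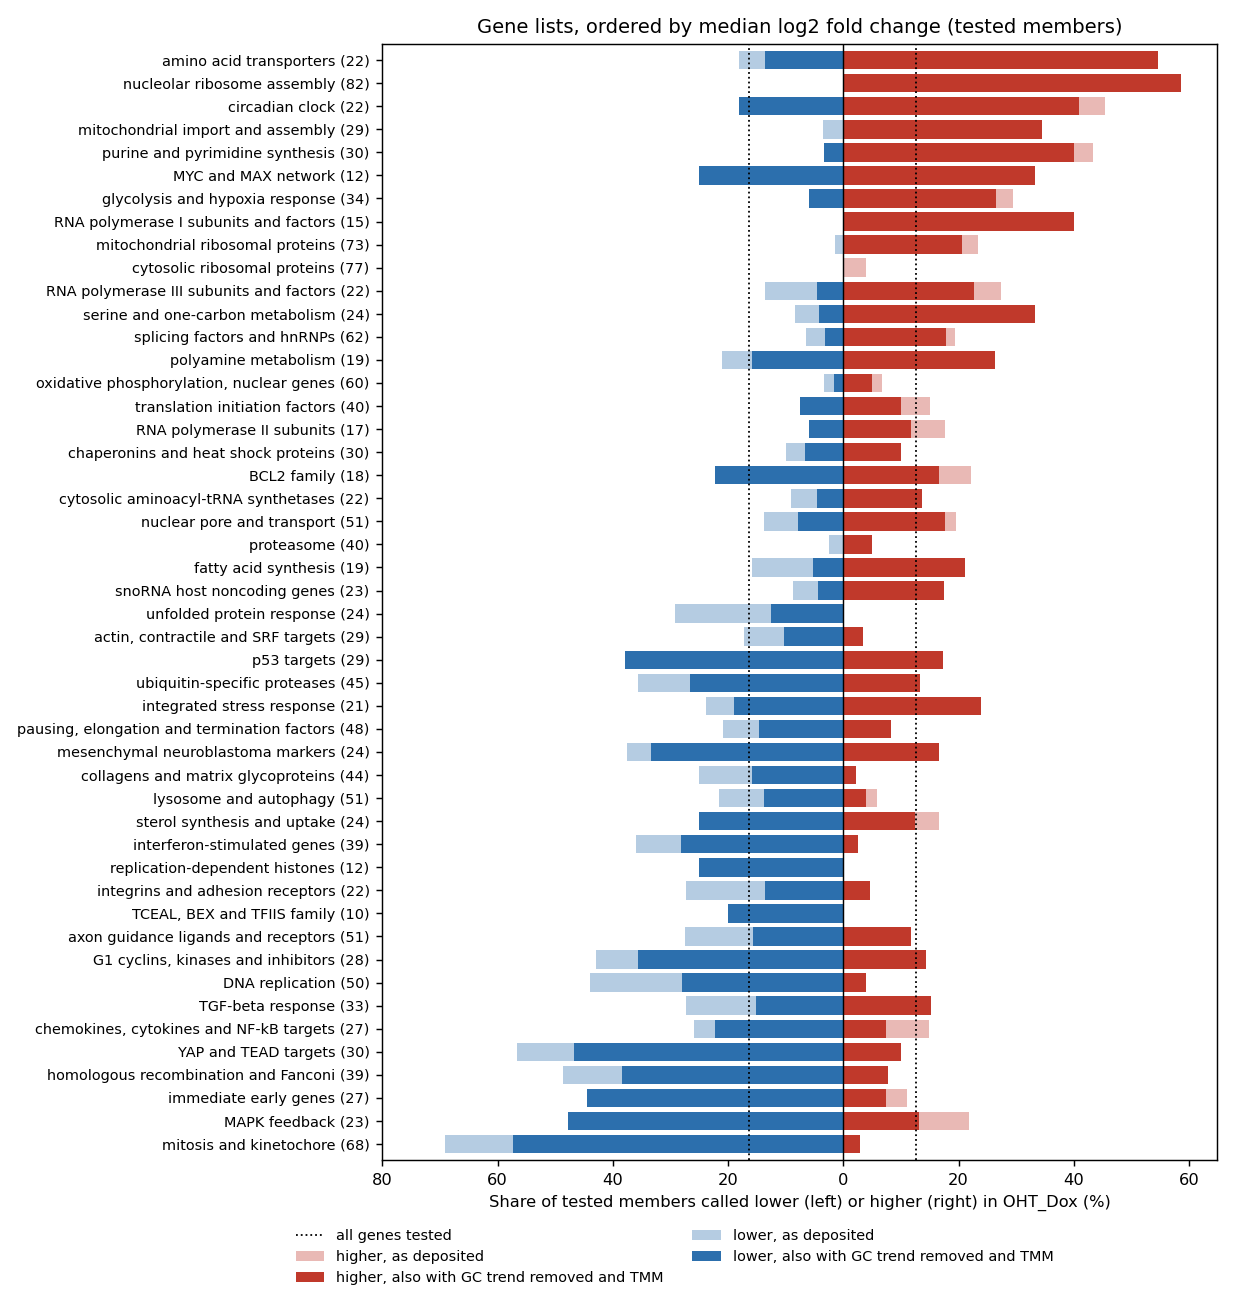
Share of tested members called lower (left, blue) or higher (right, red) in OHT_Dox against Dox for lists with at least 10 tested members (number in brackets), ordered by median log2 fold change; full colour marks calls that also held with the GC trend removed and with TMM rescaling, and dotted lines mark all genes tested (16.3% lower, 12.6% higher). Nucleolar genes reach 58.5% higher and mitosis genes 69.1% lower.

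The response was set beside that of OHT without Dox, where 2354 genes were higher (13.0%) and 1655 lower (9.13%) in OHT against Ctrl. No library is shared between the comparisons. Of the genes called higher with Dox, 1577 (69.1%) were also called higher without it, and 2 were called the opposite way; these 1577 are 67.0% of those called higher without Dox. Of the genes called lower with Dox, 931 (31.4%) were also called lower without it, and 2 the opposite way; they are 56.3% of those called lower without Dox. Among kept calls the shares were 73.8% of rises and 38.4% of falls. The difference between the effects was called for 0 genes (limma interaction over 12 libraries, lowest adjusted p = 0.218), while 2850 genes (15.7%) had an unadjusted p below 0.05. edgeR called 0 and DESeq2 called 1, DAXX, a histone chaperone, at 0.77 in log2. Without Ctrl replicate 1, 276 differences in the higher and 781 in the lower direction were called, so this count rests on that library.

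Some groups had unlike counts in the 2 backgrounds, though no member's difference was called and no test of the lists as such was made. The counts and SE without Dox came from the fit of 12 libraries, those with Dox from the fit of 6. Over all genes, 12.6% were higher and 16.3% lower with Dox, and 13.0% and 9.13% without. The part of the GC trend and of library scaling in the unlike counts was not tested. Of the 77 cytosolic ribosomal protein genes, 3 were higher and 0 lower with Dox, and 0 and 22 without. Nuclear genes of oxidative phosphorylation showed 4 and 2 with Dox (8 and 1 after TMM rescaling) and 0 and 15 without. For nucleolar assembly genes the counts were 48 and 0 with Dox and 35 and 1 without, and for mitosis genes 2 and 47 with and 2 and 38 without. YAP and TEAD targets showed 3 and 17 with Dox and 4 and 7 without, ubiquitin-specific proteases 6 and 16 with and 9 and 3 without. Sterol genes showed 4 higher and 6 lower with Dox and 7 and 0 without. STARD4 changed by -0.25 ± 0.10 without Dox and by -0.83 ± 0.06 with it, a difference of -0.59 ± 0.15 (adjusted p = 0.218). For SAMD9 the effects were -0.23 ± 0.11 and -0.85 ± 0.09, a difference of -0.62 ± 0.15 (adjusted p = 0.218), and for USP53 -0.15 ± 0.08 and -0.62 ± 0.07, a difference of -0.47 ± 0.12 (adjusted p = 0.218). These 3 were singled out after their values were seen.

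**Figure D5:**
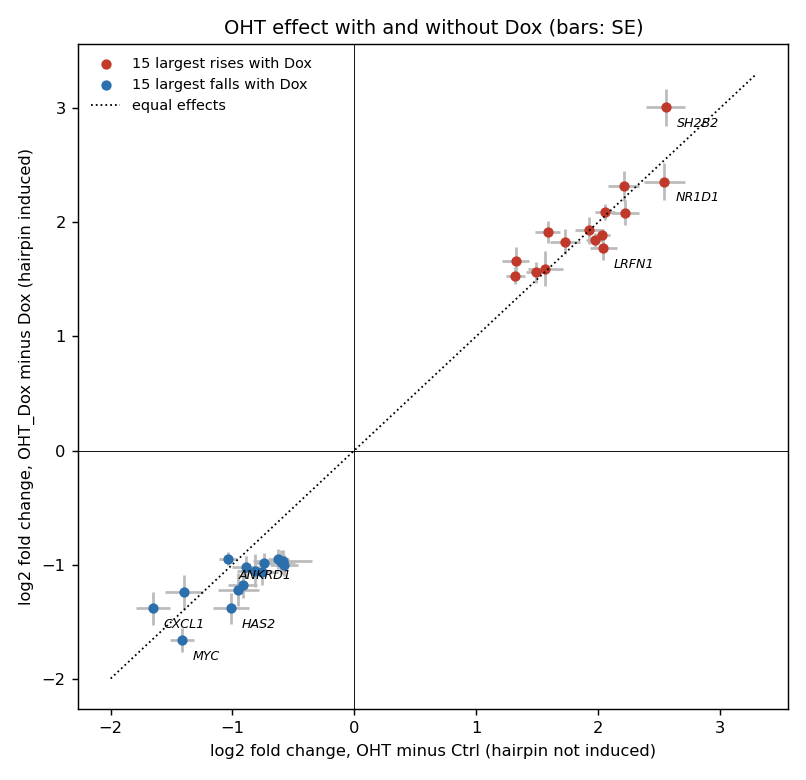
log2 fold change of the 15 largest rises (red) and 15 largest falls (blue) of OHT_Dox minus Dox (vertical axis) against OHT minus Ctrl (horizontal axis), with SE bars and a dotted line of equal effects. Horizontal SE come from the fit of 12 libraries and vertical SE from the fit of 6. All 30 genes have the same sign in both. The genes were chosen on the vertical axis, so their place relative to the line is a description only.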

How the data were processed

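The deposited values are CPM, scaled by the authors to 1000000 per library over 28576 genes, as the table's name and column sums show. Of the tools in the submitters' processing notes, which state no roles, STAR and featureCounts can apply to RNA libraries, and the builds listed are hg19 and mm10. The labels' protocols name a directional library kit, and the strand setting of the counting is not given in the sources used here. Values were tested as log2(CPM + 0.5) with limma 3.58.1 (R 4.3.3, empirical Bayes with a mean trend, Benjamini-Hochberg). The fit had 6 libraries for OHT_Dox against Dox, and 12 for OHT against Ctrl and for the difference between backgrounds. The pseudocount makes the fold changes of low genes smaller. GC content came from GENCODE 29 transcripts (28572 genes matched), and each library's trend was a natural spline with 5 degrees of freedom. All values were whole multiples of 1 step (100.0% within 0.01 reads), so whole reads were recovered for edgeR 4.0.16 (2786 genes higher, 2316 lower) and DESeq2 1.42.0 (2778 and 2495). Counts were simulated for this comparison (18119 genes) with 1 dispersion for every gene and a linear GC trend in OHT_Dox replicate 3 only. The changed genes were drawn from those with a mean of at least 5 CPM. Without removal of the trend, 42% of 50 genes with a log2 change of 0.32 and 100% of 50 changed 1.5-fold were recovered. In the simulation 17919 of the 18119 genes were unchanged, whereas 28.9% of genes were called in the data. The p needed for a call was therefore smaller in the simulation, and these shares do not give the recovery in the data. Recovery of changes in genes below 5 CPM was not simulated. Replicates differed beyond sampling noise. The alternatives tried were the GC trend (and length) removed, TMM rescaling, a replicate block, other pseudocounts and filters, both count models, all 12 libraries in 1 fit and each library left out. Named genes are 6 chosen for the study's subject (TCEAL1, MYCN, MYC, USP11, USP7, TCEA1), then the 15 largest rises and 15 largest falls among calls that also held with the GC trend removed, with groups that did not overlap and a mean of 5 CPM or more in the higher one, without clone, LOC or LINC names. For each of the 53 lists, up to 4 called members with the smallest p are named. The comparison, the lists and these rules were chosen with earlier results of these data known. No gene coordinates are given other than those of the RefSeq promoter windows, because the builds of the notes and the annotation differ. A few withheld genes are not reported here.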

Additional observations from a re-analysis of the deposited data

How the results depend on the processing

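The numbers of genes higher and lower in OHT_Dox stayed within 1.5 times of 2283 and 2961 under all alternatives run but one. They ranged from 1923 (no filter) to 2924 (replicate block with the GC trend removed) for rises and from 2308 (no filter) to 3579 (replicate block) for falls, apart from single libraries left out. Leaving out each library in turn gave 1730 to 2345 rises and 1898 to 3139 falls, the lowest count of falls without Dox replicate 2, which is also the one outside 1.5 times. The labels do not state whether equal replicate numbers of Dox and OHT_Dox pair the samples. Deviations of same-numbered libraries correlated across genes at 0.03, 0.12 and 0.17. As deposited, 5 of the 6 libraries correlated best with their own number, while Dox replicate 1 did so with OHT_Dox replicate 2 (0.06). With the GC trend removed, the same-numbered correlations were 0.01, 0.10 and 0.06, and every library correlated best with its own number. The main fit ignored a possible pairing. The replicate block gave 2725 rises and 3579 falls. Without Dox replicate 1 and OHT_Dox replicate 3 there were 2247 and 3161. Removing the GC trend without OHT_Dox replicate 3, chosen after seeing the data, gave 2378 and 2506. The difference between backgrounds had 0 calls under all settings run except DESeq2 (1 higher) and the omission of single libraries, which ranged from 0 to 276 higher and from 0 to 781 lower, the upper ends without Ctrl replicate 1. The 30 largest rises and falls were chosen as calls that held with the GC trend removed, and they kept their direction and call under the other alternatives run. Among genes not called, the sign turned for TCEAL1 (0.0099 with the GC trend removed and without OHT_Dox replicate 3). It turned for TCEA1 with the GC trend removed, alone (0.0583), with the replicate block (0.0583) or without OHT_Dox replicate 3 (0.0617), and with the GC and length trends removed (0.0417). With 1 library left out, USP7 ranged from -0.0178 (without Dox replicate 1) to 0.0387 (without OHT_Dox replicate 3) and was also below 0 without OHT_Dox replicate 1 or 2, while the other alternatives gave 0.0081 to 0.0646. The cause was not tested.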
